A study of Mus musculus with 16 samples.

Results

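The transcripts described here are those of the Polycomb machinery: 36 genes that encode the subunits of Polycomb repressive complexes 1 and 2 (PRC1 and PRC2), the H3K27 demethylases and subunits of the H2A deubiquitinase. They were taken as the rows whose Ensembl identifier carries a listed mouse symbol. Coordinates are those of GRCm38. All 36 were found among the 41388 genes of each library, and all 36 passed the filter on low counts. The libraries came from primary cortical neurons of Swiss Webster mouse embryos at embryonic day 16. Every culture was transduced on day 5 in vitro with a lentivirus for exon 1 of huntingtin (Htt) and a second lentivirus for a short hairpin RNA (shRNA), and was harvested on day 10. Exon 1 carried 25 glutamines (25Q, wild type) or 72 glutamines (72Q, the mutant form of Huntington disease). The 4 groups held 4 libraries each. A luciferase shRNA served as the control in 25Q and in 72Q, and the 72Q neurons further received, in separate groups, shRNA 1 or shRNA 2 against Twist1. Twist1 is a basic helix-loop-helix transcription factor. No group combined 25Q with a Twist1 shRNA, all neurons keep their own Htt gene, and the sources used here do not give the promoter of the exon 1 virus.

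PRC2 methylates histone H3 at K27 (H3K27), a mark of silenced developmental genes. PRC1 places ubiquitin on histone H2A at K119 and compacts chromatin. Canonical PRC1 is drawn to methylated H3K27 by a chromobox (CBX) subunit, whereas variant PRC1 holds RYBP or YAF2 in place of the chromobox, and its form with PCGF1 reaches unmethylated CpG islands through KDM2B. KDM6A and KDM6B remove the H3K27 mark, and BAP1 with ASXL1 removes ubiquitin from H2A. In neurons that have left the cell cycle, Polycomb silencing is known for keeping genes of other lineages off, and EZH1 replaces much of EZH2.

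Libraries held 15814525 to 19533034 counts. Each group had 1 library in each of the experiments that the labels call exp107, exp108, exp109a and exp109b, and single-library values below are given in this order. Twist1 stood at 0.271 ± 0.225 CPM (counts scaled to a common library total; SD, n = 4) in 25Q, 4.15 ± 0.763 in 72Q, 1.57 ± 0.452 with shRNA 1 and 1.64 ± 0.403 with shRNA 2. Neuronal markers were abundant in all groups, and the summed CPM of 10 of them was 8854 to 9994 in 25Q, 5795 to 6919 in 72Q, 6466 to 7182 with shRNA 1 and 5828 to 6877 with shRNA 2. Sums over 8 astrocyte markers were 1657 to 2050.5 CPM, 1817 to 2263, 1920.4 to 2227 and 1444 to 2015 in the same order of groups. Those over 8 oligodendrocyte-lineage markers were 1025 to 1146, 1056 to 1194, 873 to 974 and 750.5 to 869 CPM, and those over 10 markers of proliferating progenitors were 199 to 269.7, 239.7 to 315, 239.9 to 282 and 201 to 249 CPM. Neuronal markers were thus highest in 25Q and oligodendrocyte-lineage markers lowest with the shRNAs. Microglial markers were low but highest with shRNA 2. The sum of 8 was 8.51 to 10.1 CPM in 25Q, 8.53 to 9.82 in 72Q, 7.01 to 8.92 with shRNA 1 and 12.8 to 13.2 with shRNA 2. Tmem119 was at 0 counts in 25Q and C1qb at 0 with shRNA 2. The 9 endothelial, mural and meningeal markers summed to 10.7 to 29.7 CPM, with Cldn5 at 0 counts in 25Q. The part of these shifts in the results below was not tested, and in such bulk samples fewer cells of a type and less RNA per cell cannot be told apart.

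The level of each gene per transcript length was read from the deposited RPKM values (counts scaled to the library total and to gene length), which serve to compare genes within a library. Cbx6, a chromobox reader, was highest, with a mean of 48.5 RPKM over the 16 libraries and above 97.4% of all 41388 genes. It was followed by Yaf2 at 37.3 RPKM, the histone-binding PRC2 subunit Rbbp7 at 34.4 and the deubiquitinase Bap1 at 33.5. Yaf2 held this place through the shRNA groups, at 45.2 RPKM with shRNA 1 and 50.8 with shRNA 2. In 25Q and 72Q it was at 27.5 and 25.4 RPKM, below Rbbp7 at 36.1 and 32.4 and Bap1 at 34.8 and 31.5. The lowest were Cbx7 at 1.46 RPKM, Pcgf5 at 1.33 and the PRC2 accessory gene Phf19 at 0.521, which still lay above 67.2% of the 41388 genes. A single library detected only 20188 to 21433 of these, so both percentages count many undetected genes. Neighbours in this order often did not differ beyond the spread of the libraries: Rbbp7 ranged from 30.4 to 40.2 RPKM and Bap1 from 29.2 to 40.7. Ezh1 at 7.50 RPKM was well above its paralog Ezh2 at 1.76, and the libraries of the pair did not overlap (6.52 to 9.56 and 1.46 to 2.04). The demethylases Kdm6a, at 6.07 RPKM, and Kdm6b, at 5.74, lay side by side.

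**Figure D1:**
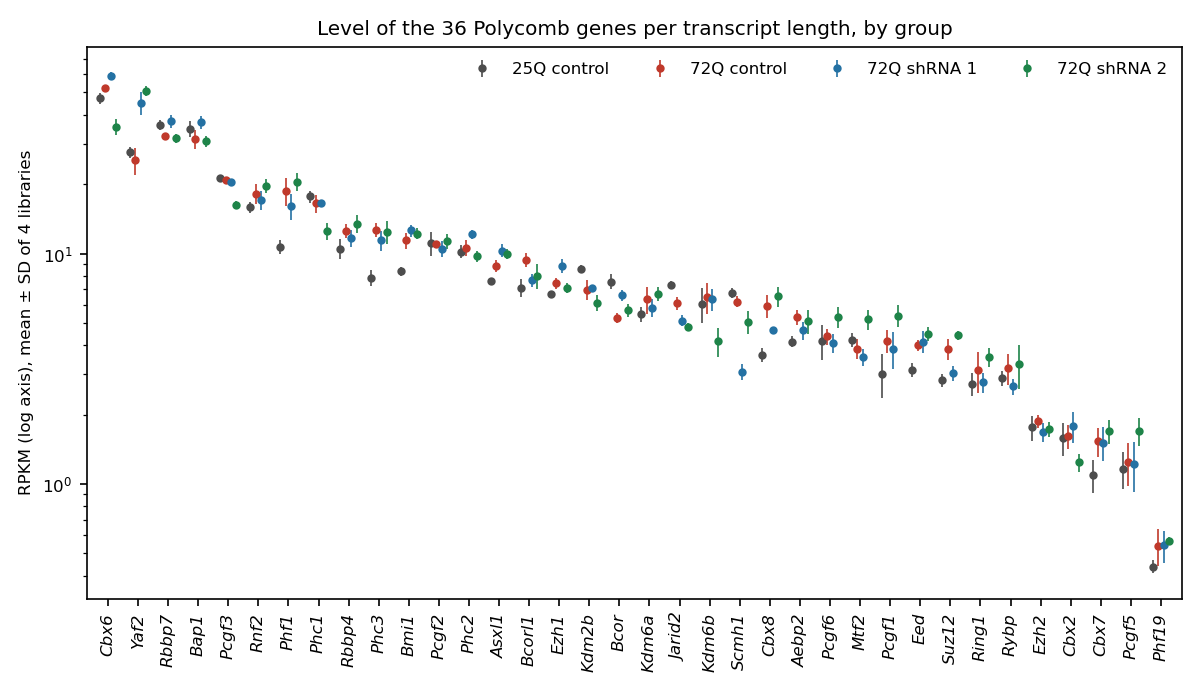
Mean deposited RPKM (log axis) of the 36 genes in the 4 groups, with the SD of 4 libraries, ordered by the mean over 16 libraries from Cbx6 (48.5 RPKM) to Phf19 (0.521 RPKM). Deposited RPKM values carry no correction between libraries beyond their totals, so heights are to be compared between genes within a colour.

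In 72Q against 25Q neurons with the control shRNA, 20 of the 36 genes changed, 10 up and 10 down. Of all 15103 genes tested, 57.1% changed (29.3% up and 27.8% down), beside 55.6% of the 36, so the set changed about as often as the rest. Changes were small: none of the 36 reached a called 2-fold change, against 7.87% of all genes, and Phf1 and Bcor were the only genes called at 1.5-fold or more, against 18.8%. The median absolute log2 fold change was 0.214 over the 36 and 0.253 over all genes. Every call is that of edgeR's quasi-likelihood test on counts with Benjamini-Hochberg adjustment over all genes tested and a threshold of 0.05, and log2 fold changes are given ± SE. With library totals as the only scaling the split was 16 up and 5 down, and with upper-quartile factors 14 up and 9 down. Without scaling factors, the median log2 fold change of all genes moved from 0.03 to 0.163. The falls of Mtf2, Pcgf3, Phc1, Scmh1 and Yaf2 were then lost and Asxl1, Cbx6, Eed, Ezh1, Kdm6a and Rnf2 passed as higher.

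Twist1 shRNA 1 changed 18 of the 36 genes against the control in 72Q, 9 up and 9 down, where 46.3% of all genes changed (22.7% up and 23.6% down). Twist1 shRNA 2 changed 14, where 41.8% of all genes did (20.2% up and 21.5% down), and 12 of these fell while 2, Yaf2 and Mtf2, rose. The median log2 fold change with shRNA 2 was nonetheless -0.011 over the 36 genes, beside 0.002 over all genes. The split with shRNA 2 became 8 up and 10 down without scaling factors and 5 up and 10 down with upper-quartile factors, Ezh1 and Bap1 being lost under each. A called change of 2-fold or more was seen for none of the 36 with either shRNA, against 2.85% and 1.44% of all genes. Scmh1 with shRNA 1 lay at that threshold, its log2 fold change ranging from -1.06 to -0.97 over the alternatives, so it passed under some. At 1.5-fold or more, 2 genes were called with shRNA 1 and 3 with shRNA 2, against 11.2% and 7.58%. Both comparisons share the 72Q control libraries, so their values are set side by side below and no agreement between them is counted. The direct comparison of the shRNAs called 23 of the 36 genes, 13 higher with shRNA 1 and 10 higher with shRNA 2, where 53.2% of all genes were called (27.3% higher with shRNA 1 and 25.9% lower). None was called at 2-fold or more, against 3.88%. Without scaling factors that split was 11 and 16, as Asxl1 and Jarid2 were lost and Aebp2, Kdm6a, Pcgf5, Phc3, Rybp and Yaf2 passed as lower with shRNA 1.

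**Figure D2:**
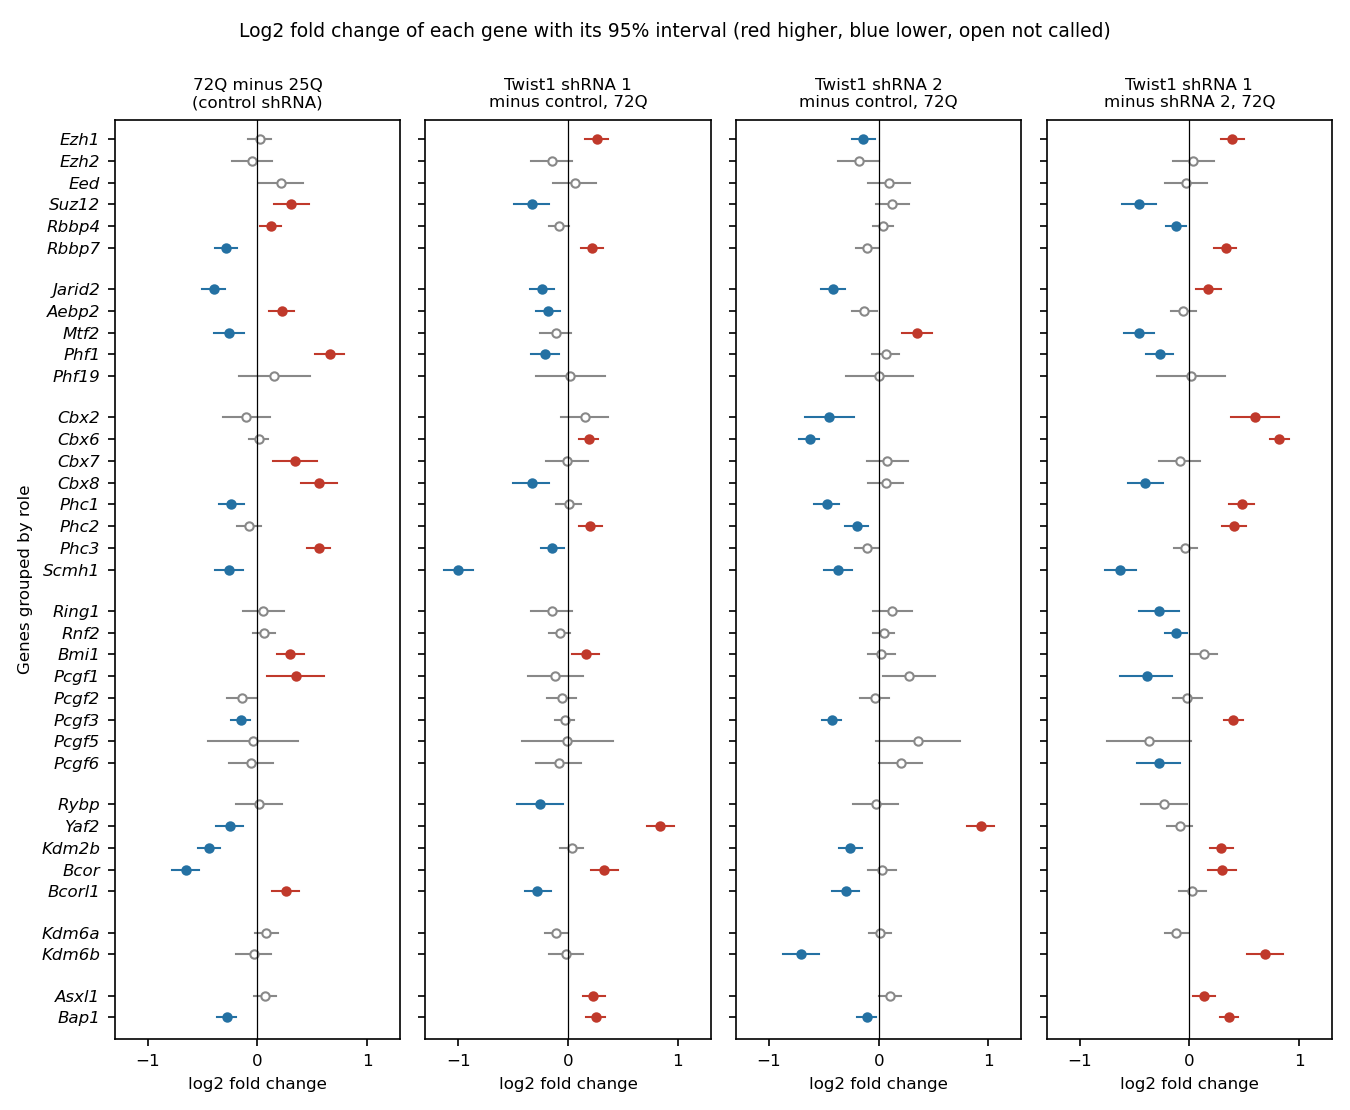
Log2 fold change (x axis) with its 95% interval for each gene (rows, grouped by role) in 4 comparisons. Filled red and blue points passed the test as higher and lower and open points did not; values run from -1.0 (Scmh1 with shRNA 1) to 0.93 (Yaf2 with shRNA 2).

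Among the PRC2 core genes, the catalytic subunits Ezh1 and Ezh2 were not called in 72Q, whereas the scaffold gene Suz12 rose and the histone-binding gene Rbbp7 fell. Ezh1 (ENSMUSG00000006920, chr11:101191115-101226463) stood at 57.0, 51.3, 53.0 and 53.8 CPM in 25Q, 54.9, 57.0, 52.4 and 53.9 in 72Q, 65.7, 65.0, 60.3 and 70.2 with shRNA 1, and 51.4, 48.2, 46.6 and 52.6 with shRNA 2. Every shRNA 1 library was thus above every other library, while the remaining groups overlapped. The log2 fold change of Ezh1 was 0.02 ± 0.051 in 72Q (adjusted p = 0.752), 0.26 ± 0.05 with shRNA 1 (adjusted p = 9.74e-05) and 0.39 ± 0.05 for shRNA 1 over shRNA 2 (adjusted p = 1.24e-07). With shRNA 2 it was called lower by a small margin (-0.14 ± 0.051, adjusted p = 0.0331), a call lost on leaving out any of 6 of the 8 libraries compared, all but the 72Q control libraries of exp107 and exp109b (adjusted p = 0.0537 to 0.147), without the experiment as a block (0.127), without the low-count filter (0.123), with DESeq2 (0.0773), with upper-quartile factors (0.129) and without scaling factors (0.363).

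Ezh2 (ENSMUSG00000029687, chr6:47530274-47595341) was at 12.8, 12.8, 12.0 and 9.78 CPM in 25Q, 11.7, 12.3, 11.1 and 10.8 in 72Q, 10.2, 10.6, 9.21 and 11.4 with shRNA 1, and 11.3, 9.96, 9.91 and 9.12 with shRNA 2. All 4 groups overlapped. Its log2 fold change was -0.05 in 72Q (95% interval -0.234 to 0.136) and -0.15 with shRNA 1 (adjusted p = 0.19, or 0.0348 without the shRNA 1 library of exp109b), while shRNA 2 gave -0.18 (adjusted p = 0.103). The ratio of Ezh1 to Ezh2 in RPKM was 3.82 ± 0.533 in 25Q, 3.97 ± 0.132 in 72Q, 5.27 ± 0.178 with shRNA 1 and 4.14 ± 0.454 with shRNA 2. It ranged from 5.09 to 5.46 with shRNA 1, above the 3.33 to 4.80 of all other libraries.

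Suz12 (ENSMUSG00000017548, chr11:79993106-80034123) read 15.5, 14.9, 14.0 and 16.2 CPM in 25Q, 17.7, 18.6, 17.7 and 21.2 in 72Q, 16.0, 14.4, 15.7 and 13.3 with shRNA 1, and 20.3, 19.9, 20.2 and 21.6 with shRNA 2. The 25Q and shRNA 1 libraries formed the low range, and each of them was below each 72Q control and shRNA 2 library. Its log2 fold change was 0.31 ± 0.078 in 72Q (adjusted p = 0.0012) and -0.33 ± 0.078 with shRNA 1 (adjusted p = 7.16e-04), while shRNA 2 gave 0.12 ± 0.074 (adjusted p = 0.187), and the difference of shRNA 1 from shRNA 2 was -0.46 (adjusted p = 8.63e-06). Rbbp7 moved the other way, from 114 ± 3.13 CPM in 25Q to 93.3 ± 3.48 in 72Q and 109 ± 6.79 with shRNA 1 (log2 fold changes -0.29 and 0.22, adjusted p = 8.64e-06 and 4.00e-04), and it was at 86.5 ± 3.21 with shRNA 2. The ratio of Rbbp7 to its paralog Rbbp4 in RPKM was 3.45 ± 0.257, 2.61 ± 0.221, 3.21 ± 0.249 and 2.35 ± 0.232 in the 4 groups. Rbbp4 itself was called higher in 72Q by only 0.12 ± 0.046 (adjusted p = 0.027), a call lost without the 25Q library of exp109a (0.132), the 72Q control library of exp109a (0.157) or that of exp109b (0.0981), without the experiment as a block (0.204), without the low-count filter (0.104), with DESeq2 (0.0541) and in a fit of these 2 groups alone (0.0505). Rbbp4 was also called lower with shRNA 1 than with shRNA 2 (-0.12, adjusted p = 0.0239), which was lost without the shRNA 1 libraries of exp109a (0.0757) or exp109b (0.073), the shRNA 2 libraries of exp107 (0.066) or exp108 (0.0769), the block (0.196) or the low-count filter (0.0967). Eed, which binds methylated H3K27, was at 7.54 ± 0.553 CPM in 25Q and 8.77 ± 0.471 in 72Q and narrowly missed the threshold (log2 fold change 0.21, adjusted p = 0.067, or 0.0329 without the 72Q control library of exp109b, 0.0194 with upper-quartile factors and 0.00338 without scaling factors). The shRNAs left Eed within intervals of -0.134 to 0.255 and -0.0998 to 0.283 of the 72Q control.

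Of the 5 accessory genes that define the forms of PRC2, 2 rose and 2 fell in 72Q. Jarid2 and Aebp2 belong to one form and the Polycomb-like genes Phf1, Mtf2 and Phf19 to the other, which they help bring to CpG islands. Jarid2 (ENSMUSG00000038518, chr13:44729474-44921643) fell in 72Q and fell further with each shRNA. It was at 80.3, 74.8, 80.8 and 73.5 CPM in 25Q, 61.7, 53.1, 63.9 and 55.6 in 72Q, 49.1, 46.0, 49.9 and 53.0 with shRNA 1, and 46.9, 41.4, 43.1 and 44.0 with shRNA 2. No library of 1 group reached the range of the next, except that the shRNA 1 and shRNA 2 ranges overlapped. The log2 fold changes were -0.40 ± 0.052 in 72Q (adjusted p = 1.15e-07) and -0.24 ± 0.053 with shRNA 1 (adjusted p = 4.25e-04), while shRNA 2 gave -0.42 ± 0.054 (adjusted p = 2.35e-07). The difference between the shRNAs, 0.17 ± 0.054 (adjusted p = 0.00777), was lost without the shRNA 1 library of exp109b (0.0662), without the shRNA 2 library of exp109a (0.0705), without the block (0.0589) and without scaling factors (0.154).

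Phf1 (ENSMUSG00000024193, chr17:26933127-26937890) rose most of all 36 genes in 72Q. It stood at 26.7, 26.7, 29.7 and 30.1 CPM in 25Q, 42.1, 50.2, 39.1 and 48.1 in 72Q, 33.2, 40.8, 37.3 and 44.0 with shRNA 1, and 44.1, 47.4, 43.9 and 51.7 with shRNA 2. The 25Q libraries lay below all others, and the 72Q groups overlapped. The log2 fold change was 0.66 ± 0.064 in 72Q (adjusted p = 5.23e-10), a 1.58-fold rise seen in 4 of 4 experiments. With shRNA 1 Phf1 was called lower (-0.21 ± 0.062, adjusted p = 0.00625), but not without the 72Q control library of exp108 (0.0618) or without the block (0.104), and with shRNA 2 it was at 0.06 ± 0.06 (adjusted p = 0.443). Mtf2 fell in 72Q, from 24.1 ± 1.56 to 20.1 ± 1.89 CPM (-0.26 ± 0.068, adjusted p = 0.00177, or 0.114 without scaling factors), and rose with shRNA 2 to 25.6 ± 2.26 CPM (0.35 ± 0.067, adjusted p = 9.28e-05). With shRNA 1 it was at 18.6 ± 1.68 CPM, a difference of -0.46 from shRNA 2 (adjusted p = 1.19e-06). Mtf2 overlaps Tmed5 on the opposite strand over 2639 bases, and without strand their reads cannot be told apart.

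Phf1 made up 69.3 to 70.1% of the summed RPKM of the 3 Polycomb-like genes in 25Q and 75.7 to 83.3% across the 12 libraries of 72Q groups, with Mtf2 at 27.1 to 27.8% and 14.5 to 22.1%. Phf19 was not called in any comparison, at 2.39 ± 0.159 CPM in 25Q and 2.67 ± 0.446 in 72Q. Aebp2 rose from 36.5 ± 2.61 to 42.4 ± 2.85 CPM in 72Q (0.22 ± 0.056, adjusted p = 0.00145) and fell with shRNA 1 (-0.18 ± 0.055, adjusted p = 0.00732), and neither call held without the experiment as a block (0.0637 and 0.148). Its change with shRNA 2, -0.13 (adjusted p = 0.0593), passed only without the 72Q control library of exp109a (0.0325) or the shRNA 2 library of exp109a (0.0308).

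**Figure D3:**
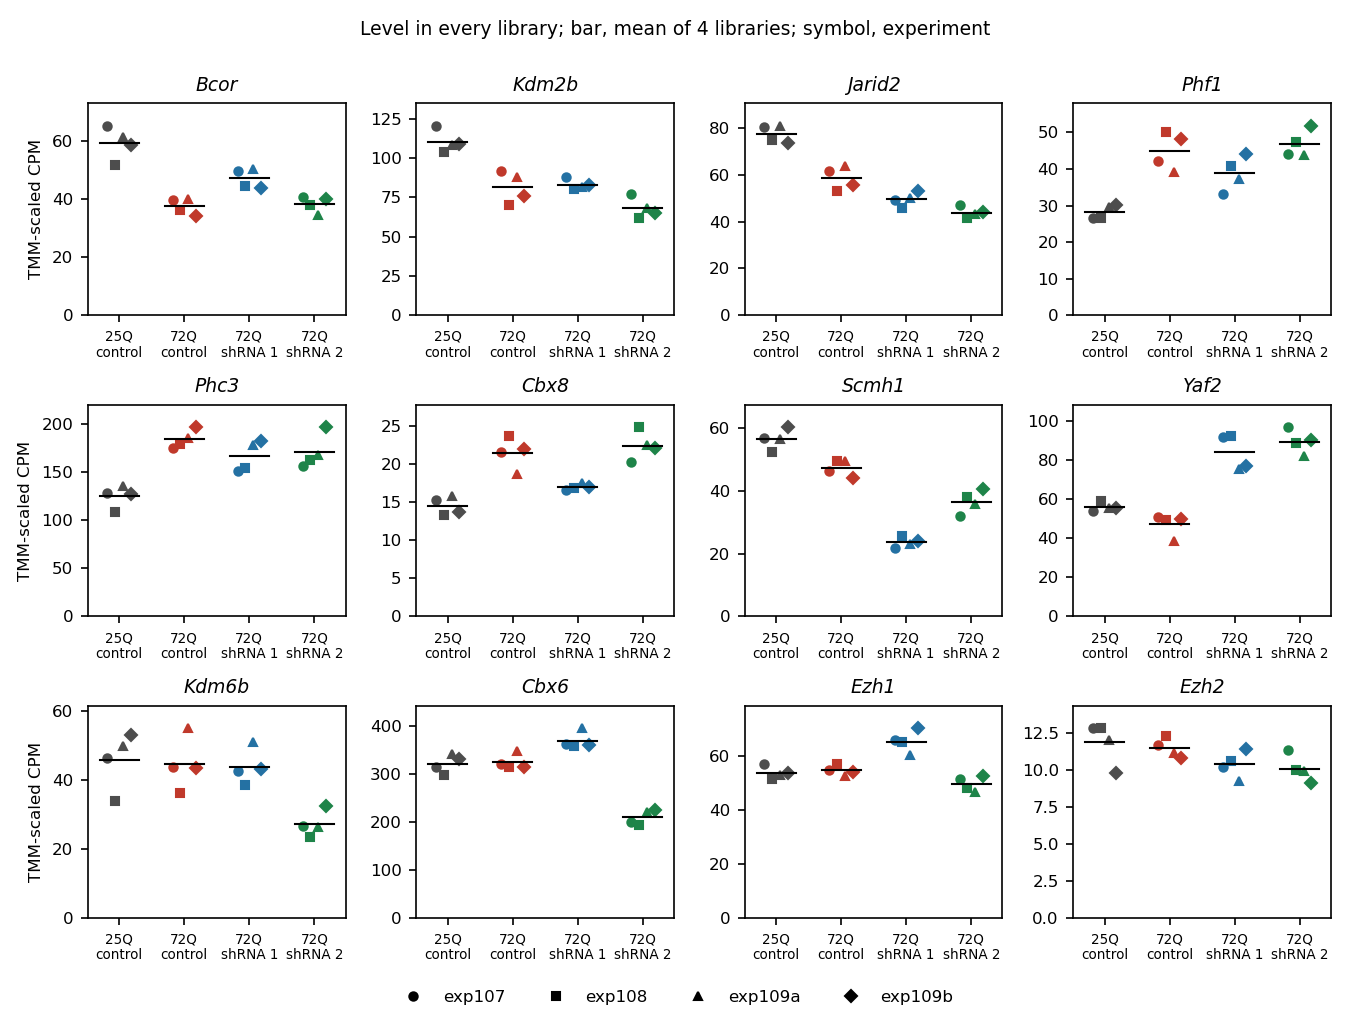
TMM-scaled CPM (y axis, from 0) of 12 genes in every library of the 4 groups; bars mark the mean of 4 libraries and symbols the experiment. Bcor, Kdm2b and Jarid2 lie lower in all 72Q groups than in 25Q, Yaf2 lies highest with both Twist1 shRNAs, and Kdm6b and Cbx6 lie lowest with shRNA 2.

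The chromobox genes, which read methylated H3K27, differed from each other. Cbx8 and Cbx7 rose in 72Q, whereas Cbx6 and Cbx2 were not called there and fell with shRNA 2. Cbx8 (ENSMUSG00000025578, chr11:119036305-119040969) was at 15.3, 13.3, 15.8 and 13.7 CPM in 25Q, 21.6, 23.8, 18.7 and 22.0 in 72Q, 16.6, 16.9, 17.6 and 17.0 with shRNA 1, and 20.3, 24.9, 22.6 and 22.1 with shRNA 2. The shRNA 1 libraries lay between the 25Q and 72Q control ranges and met neither. Its log2 fold changes were 0.56 ± 0.082 in 72Q (adjusted p = 9.63e-07) and -0.33 ± 0.08 with shRNA 1 (adjusted p = 9.15e-04), while shRNA 2 gave 0.06 ± 0.077 (adjusted p = 0.55), and the difference of shRNA 1 from shRNA 2 was -0.40 (adjusted p = 9.34e-05).

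Cbx7 (ENSMUSG00000053411, chr15:79915807-79971119) was at 8.40, 8.92, 6.44 and 6.99 CPM in 25Q, 10.7, 11.2, 8.53 and 8.83 in 72Q, 10.3, 10.8, 7.46 and 10.4 with shRNA 1, and 9.56, 11.4, 9.19 and 11.1 with shRNA 2. The 25Q and 72Q ranges overlapped, but within each of the 4 experiments 72Q was higher. The rise was 0.34 ± 0.099 (adjusted p = 0.00375, or 0.0522 without the experiment as a block), and the shRNAs were at -0.01 (95% interval -0.202 to 0.183) and 0.08 (-0.11 to 0.268) of the 72Q control.

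Cbx6 (ENSMUSG00000089715, chr15:79823896-79834688) was at 316, 298, 343 and 332 CPM in 25Q and 321, 315, 348 and 316 in 72Q, with a log2 fold change of 0.01 (95% interval -0.0746 to 0.1). It stood at 363, 359, 396 and 361 CPM with shRNA 1 and 200.1, 193, 221 and 224 with shRNA 2, so that the shRNAs lay on either side of the control with no overlap. The changes were 0.19 ± 0.043 with shRNA 1 (adjusted p = 6.16e-04), -0.63 ± 0.043 with shRNA 2 (adjusted p = 6.16e-13) and 0.82 ± 0.043 between them (adjusted p = 7.47e-16), the largest difference between the shRNAs among the 36 genes. Cbx2 (ENSMUSG00000025577, chr11:119022962-119031270) read 7.76, 5.38, 8.16 and 8.00 CPM in 25Q, 7.01, 5.66, 7.86 and 6.71 in 72Q, 8.76, 6.34, 8.53 and 6.61 with shRNA 1, and 5.43, 4.32, 4.86 and 5.25 with shRNA 2. The shRNA 2 libraries lay below all other 72Q libraries, and their highest was level with the 25Q library of exp108. It fell with shRNA 2 by 0.45 ± 0.11 on the log2 scale (adjusted p = 0.00139) and was 0.60 ± 0.11 higher with shRNA 1 than with shRNA 2 (adjusted p = 2.79e-05). In the summed RPKM of these 4 chromobox genes, Cbx6 held 88.2 ± 0.609% in 25Q, 85.2 ± 1.29% in 72Q, 88.1 ± 0.499% with shRNA 1 and 78.9 ± 1.79% with shRNA 2, and Cbx8 held 6.81 ± 0.425%, 9.69 ± 1.21%, 6.96 ± 0.177% and 14.5 ± 1.56%.

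The polyhomeotic genes Phc1, Phc2 and Phc3 encode subunits that join PRC1 complexes to each other. In 72Q, Phc3 rose and Phc1 fell. Phc3 (ENSMUSG00000037652, chr3:30899295-30969415) was at 128, 109, 136 and 127 CPM in 25Q, 175, 179, 186 and 197 in 72Q, 151, 155, 178 and 183 with shRNA 1, and 157, 163, 168 and 197 with shRNA 2. All 12 libraries of 72Q groups were above all 25Q libraries. The log2 fold change was 0.56 ± 0.052 in 72Q (adjusted p = 2.18e-10). With shRNA 1 a small fall was called (-0.15 ± 0.051, adjusted p = 0.0205), which was lost without the 72Q control libraries of exp107 (0.0502) or exp108 (0.091), the shRNA 1 library of exp107 (0.101) or the block (0.231), and with shRNA 2 the change was -0.11 (adjusted p = 0.0918, or 0.0448 in a fit of these 2 groups alone).

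Phc1 (ENSMUSG00000040669, chr6:122317731-122340561) read 112, 91.3, 104 and 102 CPM in 25Q, 93.2, 76.4, 96.4 and 80.7 in 72Q, 90.2, 81.7, 89.4 and 85.6 with shRNA 1, and 69.6, 58.2, 56.3 and 65.2 with shRNA 2. The shRNA 2 libraries were lowest with no overlap. Phc1 fell by 0.24 ± 0.054 in 72Q (adjusted p = 4.69e-04, or 0.0815 without scaling factors) and by 0.47 ± 0.056 with shRNA 2 (adjusted p = 4.32e-08), while shRNA 1 was at 0.005 (95% interval -0.107 to 0.116) and 0.48 above shRNA 2 (adjusted p = 1.90e-08). The ratio of Phc3 to Phc1 in RPKM was 0.443 ± 0.0268 in 25Q, 0.776 ± 0.103 in 72Q, 0.696 ± 0.071 with shRNA 1 and 0.999 ± 0.128 with shRNA 2. Phc2 was at 78.4 ± 5.11 and 74.2 ± 5.14 CPM in 25Q and 72Q (-0.08, adjusted p = 0.204, or 0.0463 without the 25Q library of exp108), rose with shRNA 1 to 85.3 ± 4.52 CPM (0.20, adjusted p = 0.00196) and fell with shRNA 2 to 64.5 ± 2.38 CPM (-0.20, adjusted p = 0.00262).

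Scmh1 (ENSMUSG00000000085, chr4:120405281-120530186), a homologue of the fly Polycomb gene Sex comb on midleg, was the gene that shRNA 1 lowered most. Its libraries were at 56.8, 52.4, 56.5 and 60.3 CPM in 25Q, 46.3, 49.4, 49.5 and 44.0 in 72Q, 21.7, 25.5, 23.2 and 24.0 with shRNA 1, and 31.9, 37.9, 35.8 and 40.7 with shRNA 2. The 4 groups did not overlap anywhere. Scmh1 fell by 0.26 ± 0.062 in 72Q (adjusted p = 7.13e-04, or 0.0754 without scaling factors), by 1.0 ± 0.067 with shRNA 1 (adjusted p = 2.28e-13) and by 0.37 ± 0.063 with shRNA 2 (adjusted p = 1.85e-05). The difference between the shRNAs was -0.63 ± 0.068 (adjusted p = 4.57e-09).

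The ubiquitin ligase subunits of PRC1, Ring1 and Rnf2, were not called in 72Q or with either shRNA against the control. Ring1 was at 9.56 ± 0.976, 9.94 ± 1.77, 8.90 ± 0.787 and 10.8 ± 0.848 CPM in the 4 groups and Rnf2 at 71.2 ± 3.08, 74.2 ± 6.67, 70.3 ± 5.91 and 76.5 ± 5.95 CPM. In 72Q their log2 fold changes had 95% intervals of -0.132 to 0.24 and -0.0408 to 0.157. Between the shRNAs both were called lower with shRNA 1, Ring1 at -0.28 (adjusted p = 0.00972) and Rnf2 at -0.12 (adjusted p = 0.0338). Without the block neither call held (0.0835 and 0.234), and that of Rnf2 was also lost without the shRNA 1 libraries of exp107 (0.0623), exp109a (0.104) or exp109b (0.0811) or the shRNA 2 library of exp107 (0.147), and without the low-count filter (0.134).

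The PCGF subunits decide which form of PRC1 is built. Bmi1 (Pcgf4) and Pcgf1 rose in 72Q, Pcgf3 fell slightly, and Pcgf2, Pcgf5 and Pcgf6 were not called. Bmi1 went from 36.1 ± 2.00 to 44.7 ± 3.16 CPM (0.30 ± 0.06, adjusted p = 7.98e-05). It was called higher again with shRNA 1, at 49.8 ± 2.90 CPM (0.16, adjusted p = 0.0266), but not without the 72Q control libraries of exp109a (0.102) or exp109b (0.0812), the shRNA 1 libraries of exp108 (0.085) or exp109a (0.101), or the block (0.0979). Bmi1 did not differ between the shRNAs at the threshold (0.13, adjusted p = 0.0539, or 0.0227 without the shRNA 1 library of exp109b).

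Pcgf1 (ENSMUSG00000069678, chr6:83077869-83080855), the PCGF subunit of the complex that holds KDM2B and BCOR, was at 5.04, 5.99, 3.74 and 4.38 CPM in 25Q, 5.85, 5.72, 5.82 and 6.97 in 72Q, 4.47, 6.85, 5.48 and 5.74 with shRNA 1, and 6.98, 8.48, 6.95 and 7.32 with shRNA 2. The 25Q and 72Q ranges overlapped, and 72Q was higher in 3 of 4 experiments. The rise in 72Q was 0.35 ± 0.13 (adjusted p = 0.02) and rested on single libraries, being lost without the 25Q libraries of exp109a (0.102) or exp109b (0.0897), the 72Q control libraries of exp107 (0.05) or exp109b (0.112), or the block (0.072). Pcgf1 was lower with shRNA 1 than with shRNA 2 (-0.39, adjusted p = 0.00544). Its value with shRNA 2, 0.28, missed the threshold (adjusted p = 0.0531), but passed without the 72Q control library of exp109b (0.0277), under the other scalings (0.014 to 0.0458) and in a fit of these 2 groups alone (0.0364).

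Pcgf3, the most abundant PCGF transcript, was at 219 ± 8.24 CPM in 25Q and 197 ± 6.8 in 72Q. That fall of 0.15 (adjusted p = 0.00233) was lost without scaling factors (0.717) and with upper-quartile factors (0.0554). With shRNA 2 Pcgf3 fell to 146 ± 6.85 CPM (-0.43 ± 0.042, adjusted p = 1.05e-09), and with shRNA 1 it was at 193 ± 2.40 CPM, 0.40 above shRNA 2 (adjusted p = 2.25e-09). Pcgf2 was at 42.5 ± 5.13 and 38.3 ± 1.15 CPM in 25Q and 72Q (adjusted p = 0.0565), a difference that passed without the 25Q libraries of exp107 (0.0331) or exp108 (0.0159) or the 72Q control library of exp107 (0.0201), and with DESeq2 size factors (0.045). Pcgf5, at 2.09 ± 0.409 CPM in 25Q, was not called in any comparison, though it was lower with shRNA 1 than with shRNA 2 without the shRNA 1 library of exp108 (-0.61, adjusted p = 0.0112, against 0.103 with it). Pcgf6 was called only between the shRNAs, lower with shRNA 1 (-0.28, adjusted p = 0.0145), and not without the shRNA 1 library of exp109a (0.0859) or without the block (0.0653). As shares of the summed RPKM of the 6 PCGF genes, Pcgf3 held 43.3 ± 1.5% in 25Q, 39.4 ± 0.666% in 72Q, 38.7 ± 1.66% with shRNA 1 and 31.3 ± 1.29% with shRNA 2, and Bmi1 held 17.1 ± 0.399%, 21.4 ± 1.72%, 23.9 ± 1.23% and 23.3 ± 1.10%.

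**Figure D4:**
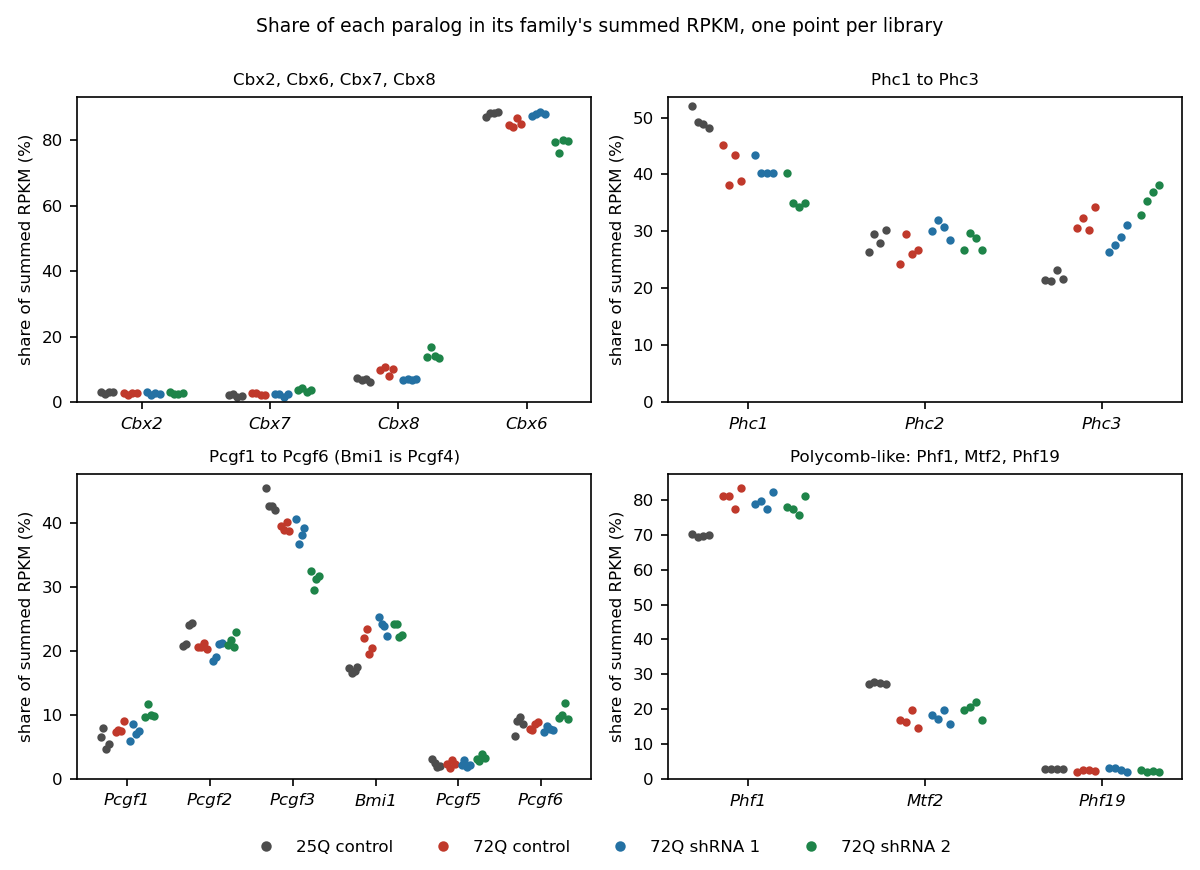
Share of each paralog in the summed deposited RPKM of its family (y axis, percent), with a point for each library of the 4 groups. In the Polycomb-like family Phf1 sits at 69.3 to 70.1% in 25Q and 75.7 to 83.3% in the 72Q groups, and Pcgf3 and Cbx6 are lowest with shRNA 2, at means of 31.3% and 78.9%.

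Variant PRC1 gave the largest falls in 72Q and, in Yaf2, the largest rise with both shRNAs. Bcor (ENSMUSG00000040363, chrX:12036740-12160355), a corepressor of the Pcgf1 complex, was at 65.1, 51.7, 61.2 and 58.5 CPM in 25Q, 39.6, 36.2, 40.0 and 34.1 in 72Q, 49.7, 44.6, 50.4 and 43.8 with shRNA 1, and 40.6, 38.0, 34.6 and 40.0 with shRNA 2. The shRNA 1 libraries lay between the 25Q and 72Q control ranges, and the shRNA 2 libraries overlapped the 72Q control. Bcor fell by 0.65 ± 0.061 in 72Q (adjusted p = 2.23e-10), to 0.635 times its 25Q level, and rose with shRNA 1 by 0.33 ± 0.062 (adjusted p = 5.28e-05). With shRNA 2 the change was 0.03 (95% interval -0.0956 to 0.159), and the shRNAs differed by 0.30 ± 0.061 (adjusted p = 1.42e-04).

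The related corepressor Bcorl1 moved the other way, from 65.8 ± 6.57 CPM in 25Q to 78.8 ± 4.63 in 72Q (0.26 ± 0.06, adjusted p = 4.70e-04) and 64.9 ± 3.89 with shRNA 1 (-0.28, adjusted p = 3.16e-04), while shRNA 2 gave 64.0 ± 7.39 (-0.30, adjusted p = 1.26e-04). The ratio of Bcor to Bcorl1 in RPKM was 0.993 to 1.16 in 25Q, 0.488 to 0.641 in 72Q, 0.785 to 0.992 with shRNA 1 and 0.633 to 0.828 with shRNA 2.

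Kdm2b (ENSMUSG00000029475, chr5:122870668-123015080), whose product binds unmethylated CpG islands, read 120.2, 104, 108 and 109 CPM in 25Q, 91.5, 70.3, 88.1 and 75.9 in 72Q, 87.8, 80, 81.4 and 82.7 with shRNA 1, and 77.1, 62.0, 68.0 and 64.9 with shRNA 2. All 12 libraries of 72Q groups lay below the 25Q libraries. The log2 fold change was -0.44 ± 0.05 in 72Q (adjusted p = 9.07e-09), 0.03 with shRNA 1 (95% interval -0.07 to 0.135) and -0.26 ± 0.051 with shRNA 2 (adjusted p = 1.19e-04). The shRNAs differed by 0.29 ± 0.051 (adjusted p = 1.60e-05). Kdm2b overlaps A930024E05Rik on the opposite strand over 8992 bases, which had 672 counts in all 16 libraries together beside 24035 for Kdm2b.

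Yaf2 (ENSMUSG00000022634, chr15:93284278-93336935) stood at 54.0, 58.8, 55.7 and 55.5 CPM in 25Q, 50.7, 49.3, 38.4 and 49.9 in 72Q, 92.0, 92.3, 75.5 and 76.9 with shRNA 1, and 96.8, 88.7, 82.2 and 90.2 with shRNA 2. All 8 libraries with a Twist1 shRNA were above all 8 with the control shRNA. Yaf2 fell by 0.25 ± 0.062 in 72Q (adjusted p = 8.46e-04, or 0.106 without scaling factors), rose by 0.84 ± 0.06 with shRNA 1 (adjusted p = 1.38e-12) and by 0.93 ± 0.06 with shRNA 2 (adjusted p = 2.60e-13), and the difference of shRNA 1 from shRNA 2 was -0.09 (95% interval -0.206 to 0.0278, or adjusted p = 0.0157 without scaling factors). Its paralog Rybp was at 14.0 ± 1.37, 14.1 ± 2.46, 11.8 ± 1.02 and 13.9 ± 3.26 CPM in the 4 groups. The only call of Rybp against the 72Q control was a fall with shRNA 1 (-0.26 ± 0.1, adjusted p = 0.0414), lost without the 72Q control libraries of exp108 (0.0833) or exp109a (0.326), the shRNA 1 libraries of exp107 (0.184), exp108 (0.0544) or exp109a (0.0895), the block (0.195), with DESeq2 (0.0662) and with upper-quartile factors (0.0557). Between the shRNAs Rybp was not called (-0.23, adjusted p = 0.0611), but it was without the shRNA 2 libraries of exp108 (0.0364) or exp109a (0.0107), with upper-quartile factors (0.0407), without scaling factors (0.00875) or the low-count filter (0.0452), and in a fit of these 2 groups alone (0.0338). The ratio of Yaf2 to Rybp in RPKM was 9.65 ± 1.31 in 25Q, 8.21 ± 2.06 in 72Q, 17.2 ± 3.31 with shRNA 1 and 15.8 ± 3.11 with shRNA 2.

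Bcor, Kdm2b and Jarid2 were the 3 genes of the set with the largest falls in 72Q, and Phc3 was among the 3 with the largest rises, so a window of 250 bases upstream of a start of each is shown, with that of Phc2 for its motif. Sequences are those of RefSeq on GRCm38.p6, written 5′ to 3′ on the strand of the gene, and windows that lie in an annotated exon are not shown. Capitals mark the E-box CATATG or the E-box CATCTG, hexamers known to be bound by Twist proteins. Both strands were searched, so the latter can also read CAGATG. The Bcor and Phc3 windows lie directly upstream of the annotated gene, and those of Jarid2, Kdm2b and Phc2 lie within introns by the GENCODE M21 annotation.
Bcor, minus strand, chrX:12160356-12160605: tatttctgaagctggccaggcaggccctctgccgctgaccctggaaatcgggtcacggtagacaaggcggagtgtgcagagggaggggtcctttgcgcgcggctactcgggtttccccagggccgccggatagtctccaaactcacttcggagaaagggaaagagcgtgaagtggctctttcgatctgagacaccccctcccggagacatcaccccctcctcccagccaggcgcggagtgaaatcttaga
Kdm2b, minus strand, chr5:122900368-122900617: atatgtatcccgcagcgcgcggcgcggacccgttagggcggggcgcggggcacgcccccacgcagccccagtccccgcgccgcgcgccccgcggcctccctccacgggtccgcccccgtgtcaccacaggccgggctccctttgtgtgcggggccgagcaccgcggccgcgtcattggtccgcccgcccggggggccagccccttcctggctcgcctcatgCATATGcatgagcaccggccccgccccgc
Jarid2, plus strand, chr13:44730524-44730773: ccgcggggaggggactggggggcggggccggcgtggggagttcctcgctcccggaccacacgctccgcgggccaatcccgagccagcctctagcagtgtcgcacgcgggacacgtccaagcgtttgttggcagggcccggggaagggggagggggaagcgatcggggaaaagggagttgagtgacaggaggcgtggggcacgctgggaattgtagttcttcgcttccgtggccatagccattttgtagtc
Phc3, minus strand, chr3:30969416-30969665: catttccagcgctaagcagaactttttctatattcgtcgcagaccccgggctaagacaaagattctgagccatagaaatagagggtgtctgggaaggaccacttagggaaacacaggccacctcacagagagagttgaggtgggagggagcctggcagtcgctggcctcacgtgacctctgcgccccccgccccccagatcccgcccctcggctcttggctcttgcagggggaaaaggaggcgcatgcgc
Phc2, plus strand, chr4:128688488-128688737: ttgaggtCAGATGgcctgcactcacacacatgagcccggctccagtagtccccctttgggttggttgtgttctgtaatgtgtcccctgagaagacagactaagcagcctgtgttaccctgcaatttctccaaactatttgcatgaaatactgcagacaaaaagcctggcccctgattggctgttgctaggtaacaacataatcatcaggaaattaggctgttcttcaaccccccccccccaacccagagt

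Of the 36 genes, 31 had an entry in that promoter table, with 44 windows. Yaf2, Kdm6b, Cbx2, Rybp and Pcgf1 had none, so their upstream sequences were not searched. Either E-box was present in 3 of the 44 windows (6.82%), against 17.3% of all 32851 windows of the same length. The 3 were the Kdm2b window above, another that overlaps it nearly throughout, and the Phc2 window. The windows of the Polycomb genes held a median of 20 CpG dinucleotides, against 6 over all windows, and those printed for Bcor, Kdm2b, Jarid2, Phc3 and Phc2 held 16, 36, 23, 12 and 1. A match is a description of letters only.

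The antagonists of PRC2 were unequal. Kdm6a (ENSMUSG00000037369, chrX:18162575-18279936) was at 54.1, 47.5, 44.0 and 47.2 CPM in 25Q, 57.9, 55.2, 42.8 and 48.4 in 72Q, 51.4, 49.0, 42.1 and 46.6 with shRNA 1, and 57.2, 51.6, 46.4 and 50 with shRNA 2. The 4 groups overlapped, and the libraries of exp107 were highest in each. None of its comparisons passed: the log2 fold change was 0.08 in 72Q (95% interval -0.0258 to 0.183, though adjusted p = 0.0202 with upper-quartile factors and 7.51e-04 without scaling factors) and -0.11 with shRNA 1 (adjusted p = 0.0887, or 0.0436 without the 72Q control library of exp109a), while shRNA 2 gave 0.01 (adjusted p = 0.882). shRNA 1 against shRNA 2 gave -0.12 (adjusted p = 0.0509) and passed with DESeq2 size factors (0.0395), upper-quartile factors (0.0313), no scaling factors (0.0017) and the stricter filter (0.0471).

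Kdm6b (ENSMUSG00000018476, chr11:69398508-69413675) was at 46.2, 33.7, 49.9 and 53.0 CPM in 25Q, 43.6, 36.2, 54.9 and 43.4 in 72Q, 42.6, 38.5, 50.9 and 43.0 with shRNA 1, and 26.5, 23.4, 26.2 and 32.4 with shRNA 2. Only the shRNA 2 libraries stood apart, below all 12 others. The log2 fold change was -0.035 in 72Q (95% interval -0.191 to 0.121), -0.02 with shRNA 1 (95% interval -0.173 to 0.138) and -0.71 ± 0.078 with shRNA 2 (adjusted p = 6.41e-08), to 0.612 times the control. The shRNAs differed by 0.69 ± 0.078 (adjusted p = 5.41e-08). The ratio of Kdm6a to Kdm6b in RPKM was 0.752 to 1.20 in 25Q, 0.665 to 1.3 in 72Q, 0.706 to 1.09 with shRNA 1 and 1.32 to 1.88 with shRNA 2.

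Of the deubiquitinase genes, the catalytic Bap1 fell in 72Q and its partner Asxl1 was not called. Bap1 was at 177 ± 10.8 CPM in 25Q, 146 ± 12.6 in 72Q, 173 ± 9.47 with shRNA 1 and 135 ± 6.83 with shRNA 2. It fell by 0.28 ± 0.042 in 72Q (adjusted p = 1.32e-06), in 4 of 4 experiments, and rose by 0.25 ± 0.042 with shRNA 1 (adjusted p = 1.05e-05). The fall called with shRNA 2 was small (-0.11, adjusted p = 0.037) and was lost on leaving out any of 6 of the 8 libraries compared, all but the 72Q control library of exp109b and the shRNA 2 library of exp107 (adjusted p = 0.0855 to 0.133), without the block (0.269), without the low-count filter (0.156), under the other scalings (0.0598 to 0.536) and with DESeq2 (0.0592). Between the shRNAs Bap1 differed by 0.36 ± 0.042 (adjusted p = 1.89e-08). Asxl1 rose with shRNA 1 (0.23 ± 0.049, adjusted p = 2.07e-04) and was at 0.10 with shRNA 2 (adjusted p = 0.0943). The difference between the shRNAs for Asxl1 (0.13, adjusted p = 0.0224) was lost without the shRNA 1 library of exp109b (0.123), the shRNA 2 libraries of exp108 (0.058), exp109a (0.0778) or exp109b (0.0607), the block (0.133), the low-count filter (0.0556) or scaling factors (0.421).

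Set against 25Q, 72Q neurons with shRNA 1 differed in 20 of the 36 genes, 11 up and 9 down, where 57.4% of all genes differed (28.1% up and 29.4% down), and those with shRNA 2 in 25, 11 up and 14 down, where 63.3% did (31.4% up and 31.8% down). Without scaling factors these splits were 15 and 5, and 20 and 11, and with upper-quartile factors the second was 17 and 12. The medians of all genes then moved from 0.01 to 0.133 and, for shRNA 2, from 0.014 to 0.22. With shRNA 1 the only gene past 2-fold was Scmh1, at -1.26 ± 0.066 (adjusted p = 5.63e-16), against 6.42% of all genes. With shRNA 2 no gene of the set was, against 9.4%, and 11 passed 1.5-fold, against 23.2%. These 11 included Jarid2 (-0.82), Kdm6b (-0.74), Phc1 (-0.71), Kdm2b (-0.70), Phf1 (0.72) and Yaf2 (0.67). Without scaling factors, Pcgf2, Pcgf3, Phc1 and Rybp were no longer called with shRNA 1 (adjusted p = 0.076 to 0.328), nor were Ezh2, Pcgf2 and Phc2 with shRNA 2 (0.222 to 0.813). All of these comparisons share the 25Q libraries.

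In the shRNA 1 group, 16 of the 36 genes were not called against 25Q, where 57.4% of all genes were called. Among the 16 were Suz12 (-0.02, 95% interval -0.188 to 0.14), Rbbp7 (-0.07, -0.167 to 0.0307), Bap1 (-0.03, -0.114 to 0.0566) and Bcorl1 (-0.02, -0.14 to 0.107). Aebp2, Pcgf1 and Rbbp4 were not called either. Of 16 alternatives, Aebp2 passed as higher under 1 and Pcgf1 and Rbbp4 under 2 each. Bap1 passed as higher without scaling factors (0.098, adjusted p = 0.0405). Suz12, Rbbp7, Bap1, Bcorl1, Aebp2, Pcgf1 and Rbbp4 had been called in the 72Q control against 25Q. All other genes called there were called here too, in the same direction except for Yaf2. The share of all genes called in the 72Q control but not with shRNA 1 against 25Q was not taken. Calls of this comparison that depended on single libraries were Cbx8 (without the 25Q libraries of exp108 or exp109b or the shRNA 1 libraries of exp109a or exp109b, adjusted p = 0.0508 to 0.147) and Eed (without the 25Q libraries of exp108 or exp109a or the shRNA 1 library of exp109b, 0.0626 to 0.101). The same held for Pcgf2 (without the 25Q libraries of exp109a or exp109b, 0.0577 and 0.0518), Phc2 (without the 25Q libraries of exp107, exp108 or exp109a or the shRNA 1 libraries of exp107, exp108 or exp109a, 0.0599 to 0.246) and Rybp (without any library but the shRNA 1 library of exp109b, 0.0525 to 0.198). Ezh2 was called only without the 25Q library of exp109b (0.0208) or the shRNA 1 library of exp109b (0.00957). In the shRNA 2 group the dependent calls were Ezh2 (without the 25Q libraries of exp107, exp108 or exp109a or the shRNA 2 libraries of exp108 or exp109b, 0.0641 to 0.0872) and Pcgf2 (without the 25Q libraries of exp109a or exp109b or the shRNA 2 library of exp109a, 0.0751 to 0.16). Ezh1 passed there without the 25Q libraries of exp108 (0.03) or exp109b (0.0416), and Rnf2 without the 25Q library of exp109b (0.0454) or the shRNA 2 library of exp109a (0.0491). Aebp2, Mtf2 and Bcorl1, called in the 72Q control against 25Q, were not called with shRNA 2 against 25Q. Of 16 alternatives, Aebp2 and Mtf2 passed as higher under 2 each, and Bcorl1 passed as higher without scaling factors. The matching share of all genes was not taken for shRNA 2 either.

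Other genes linked to Polycomb complexes were taken from a list of 32, of which 31 were tested. How the splits of this list and of the Trithorax list depend on scaling, the block or single libraries was not tested. In 72Q 12 rose and 7 fell, where 29.3% of all genes rose and 27.8% fell, with a median log2 fold change of 0.051 beside 0.03 over all genes. The largest changes were the rise of Sfmbt2, from 8.79 ± 0.639 to 20.7 ± 0.933 CPM (1.23 ± 0.08, adjusted p = 1.28e-13), and the falls of Lcorl, which encodes a PRC2 cofactor (-1.01, adjusted p = 4.86e-14), the H2A deubiquitinase Usp16 (-0.85, adjusted p = 2.36e-09) and the H3K4 demethylase Kdm1b (-0.67, adjusted p = 6.80e-10). With shRNA 1, 7 rose and 6 fell (22.7% and 23.6% of all genes), led by Sfmbt1 (-0.87, adjusted p = 2.41e-09). With shRNA 2, 3 rose and 12 fell (20.2% and 21.5% of all genes), led by the PRC1 partners Dcaf7 (-0.80, adjusted p = 5.91e-14) and Csnk2a1 (-0.61, adjusted p = 2.79e-12) and by Foxk1 (-0.68, adjusted p = 1.48e-12) and Asxl3 (-0.60, adjusted p = 4.40e-06). Between the shRNAs 16 were higher with shRNA 1 and 5 with shRNA 2 (27.3% and 25.9% of all genes), Asxl3 differing most (0.93, adjusted p = 4.37e-09).

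Of 20 Trithorax-group genes of H3K4 and H3K36 methylation, which counter Polycomb silencing, 12 rose and 2 fell in 72Q, where 29.3% of all genes rose and 27.8% fell. The median log2 fold change of the 20 was 0.178, beside 0.03 over all genes. The largest were Kmt2d (0.58, adjusted p = 5.37e-09), Setd1a (0.52, adjusted p = 5.87e-06), Cxxc1 (-0.50, adjusted p = 6.92e-09) and Ash2l (0.47, adjusted p = 1.45e-08). With shRNA 1, 2 rose and 7 fell, where 22.7% of all genes rose and 23.6% fell, and the median was -0.078 beside -0.005 over all genes. With shRNA 2, 1 rose and 10 fell, where 20.2% of all genes rose and 21.5% fell, and the median was -0.179 beside 0.002. Kmt2d went from 158 CPM in 25Q and 235 in 72Q to 172 with shRNA 1 (-0.45, adjusted p = 5.62e-07), while shRNA 2 gave 152 (-0.63, adjusted p = 2.68e-09).

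Classic targets of Polycomb silencing, here the HOX genes and the INK4 genes Cdkn2a and Cdkn2b, were near the floor in 25Q. Summed over all 41 they gave 1.78 to 3.91 CPM in 25Q, 21.4 to 26.7 in 72Q, 7.06 to 9.85 with shRNA 1 and 31.3 to 38.0 with shRNA 2, with no overlap between groups. In the 4 groups, 33, 6, 19 and 6 of the 41 had no count. Detection over all 41388 genes also differed, with 20188 to 20426 detected per library in 25Q and 20488 to 21433 in the 72Q groups. The share of all genes without a count in a whole group was not taken. Only 13 passed the filter, which they could do through the 72Q groups alone, so no count of calls is drawn from them. The genes named next are among these 13, so their levels are a description only. Cdkn2a was at 0.401 ± 0.278 CPM in 25Q, 4.81 ± 0.963 in 72Q, 2.74 ± 0.481 with shRNA 1 and 6.15 ± 1.16 with shRNA 2, and Hoxc13 at 0.0434, 3.05, 0.55 and 5.71 CPM, the 25Q value resting on 3 counts. Hoxb13 was at 0.108, 2.49, 0.87 and 4.94 CPM, with 7 counts in 25Q.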

How the data were processed

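RNA depleted of ribosomal RNA was sequenced in 16 libraries, and the authors deposited for each library the raw counts per Ensembl gene, CPM and RPKM. Reads were aligned to GRCm38 with STAR 2.0.4b and counted with featureCounts 1.45 of the Subread package, per the submitters' processing notes. The sources used here state neither the annotation release nor how strand and multi-mapping reads were handled. The deposited CPM and RPKM values are counts divided by the library total, and recomputing them gave the same values within 2.5e-11 and 4.7e-11. A symbol was found for 97.26% of the gene identifiers. Of the 36 genes, 16 overlap another annotated gene, 14 of them on the opposite strand, and Kdm6a is similar in sequence to Uty, so reads may be shared. The span of Cbx6 overlaps that of Npcd on the same strand over 10342 bases. Npcd had 0 counts in all 16 libraries together, and how reads in this overlap were assigned is not stated.

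Counts were tested with edgeR 4.0.16 in R 4.3.3 (filterByExpr by group, TMM factors, robust quasi-likelihood fit, prior count 2) in 1 fit of all 16 libraries (terms: group, experiment). CPM values in the text are scaled by TMM factors. Benjamini-Hochberg adjustment was over all 15103 genes tested, and the code was tested on simulated data. The experiment label puts 1 library of each group in each experiment. The replicate numbers in the titles do not follow this label in 25Q: they match those of the 72Q groups in exp109b only. The pairing of 25Q with 72Q thus rests on the experiment label, and the labels do not say whether exp109a and exp109b were separate experiments. The deviations from the group means correlated at 0.223 to 0.612 within an experiment, beside a mean of -0.128 between experiments. Centring on group means makes the second value negative whenever the first is positive, so it gives no separate support for the block. Nothing in the labels says which libraries came from separate embryos, so p-values measure only the spread between these libraries, which may be technical.

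The 36 genes and all lists were chosen with earlier results of these data known. Values in every library are given for the 8 largest called changes in 72Q against 25Q, the 4 largest with each shRNA and between the shRNAs, and the pairs Ezh1 and Ezh2, Kdm6a and Kdm6b; of each list up to 4 called genes a comparison are named. Suz12, Cbx2 and Scmh1 fall under this rule through the shRNA comparisons. Alternatives were DESeq2 1.42.0, other scalings and filters, a fit of 2 groups, no block and leaving out each library. They were read for the 36 genes and not for the lists.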

Additional observations from a re-analysis of the deposited data

Results flagged for a closer look

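In 9 of 144 groups of 4 libraries, 1 library stood apart from the other 3 by more than Dixon's critical value for the gap over the group's range, where chance gives about 1 group in 20. In 25Q, the exp108 library had 193 CPM of the deubiquitinase Bap1, where the others had 169 to 173, and 5.38 CPM of Cbx2, where the others had 7.76 to 8.16. In the 72Q control, Yaf2 was at 38.4 CPM in exp109a (others 49.3 to 50.7) and Pcgf1 at 6.97 CPM in exp109b (others 5.72 to 5.85). With shRNA 1, the exp109a library had 396 CPM of Cbx6 (others 359 to 363) and 7.46 CPM of Cbx7 (others 10.3 to 10.8). The exp108 library of that group had 2.71 CPM of Pcgf5 (others 1.69 to 1.82) and 113 CPM of Rbbp4 (others 97.0 to 99.3). With shRNA 2, Rbbp4 was again highest in exp108, at 124 CPM (others 106 to 108).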

How the results depend on the processing

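The total of called genes, higher and lower together, stayed within 1.5 times its reported value in each comparison under all alternatives. The split by direction moved more. Without scaling factors, higher and lower calls went from 10 and 10 to 16 and 5 in 72Q against 25Q, from 2 and 12 to 8 and 10 with shRNA 2, from 13 and 10 to 11 and 16 between the shRNAs, and from 11 and 9 to 15 and 5 and from 11 and 14 to 20 and 11 for shRNA 1 and shRNA 2 against 25Q. With upper-quartile factors higher calls went from 2 to 5 with shRNA 2 and from 11 to 17 for shRNA 2 against 25Q. Leaving out 1 library at a time gave 18 to 22 called genes in 72Q against 25Q, 15 to 19 with shRNA 1, 12 to 15 with shRNA 2, 20 to 24 between the shRNAs, and 16 to 19 and 23 to 26 for shRNA 1 and shRNA 2 against 25Q. Over all single-gene values and left-out libraries, 1631 kept their side of the threshold, 77 lost a call, 20 gained one and none changed direction while called. The 3 values that reversed did so without scaling factors, against 25Q: Bap1 with shRNA 1 became 0.098 (adjusted p = 0.0405), Bcorl1 with shRNA 2 became 0.17 (0.0107) and Pcgf2 with shRNA 2 became 0.03 (0.68). The cause was not tested.

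Without the experiment as a replicate block, the counts were 16 in 72Q against 25Q, 13 with shRNA 1, 12 with shRNA 2, 17 between the shRNAs, and 16 and 22 against 25Q; 24 calls were lost and none was gained. Higher calls in 72Q then went from 10 to 6, lower calls with shRNA 1 from 9 to 5, and lower calls with shRNA 1 against shRNA 2 from 10 to 6. Those lost against 25Q were Cbx7 (0.0565), Pcgf2 (0.056), Phc2 (0.137) and Rybp (0.187) with shRNA 1 and Ezh2 (0.0631), Pcgf2 (0.0747) and Rbbp4 (0.0757) with shRNA 2; the others stand beside their results. Phf19 and Pcgf5 had few counts, 744 and 629 over the 16 libraries; whether depth limited their calls was not tested.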
